A study of Mus musculus with 67 samples.

Results

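The antioxidant enzymes described here are the products of 10 genes: Sod1, Sod2, Sod3, Cat, Gpx1, Gpx3, Gpx4, Prdx1, Nqo1 and Hmox1. The genes were chosen by name for their known function, with earlier results of these data known. They are 10 of the 39179 gene rows of the deposited table, and all 10 passed the filter on low values, a mean of at least 10 normalised counts and a read in at least 25% of cells in at least 1 passage, which kept 8682 genes. They were measured by RNA sequencing in 67 single vascular smooth muscle cells, which form the contractile layer of the arterial wall. The cells were grown from the descending aorta, and the donors were adult male C57Bl6 mice, 3 to 4 months old. The 45 passage 2 cells came from passage 1 cells that were detached with trypsin and plated again, and the 22 passage 1 cells came from the first cultures, which stood undisturbed for 5 days. All were grown in DMEM with 10% serum and 1% antibiotic, captured on a Fluidigm C1 chip and made into 1 Nextera XT library per cell. No transgene or drug is named in the labels, and traction force data of the study were not analysed here.

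Oxygen-using cells continuously form superoxide. Superoxide dismutases turn it into hydrogen peroxide, which catalase, glutathione peroxidases and peroxiredoxins then turn into water. In the arterial wall superoxide also consumes nitric oxide, the signal by which the endothelium relaxes smooth muscle, and smooth muscle cells are known as a source of the extracellular dismutase of the vessel. A further group of enzymes, among them Nqo1 and Hmox1, is induced by the transcription factor Nrf2 (gene Nfe2l2), which the adaptor Keap1 marks for degradation until oxidants or electrophiles modify it. Nrf2 binds with small Maf proteins to the antioxidant response element, whose core reads TGACNNNGC.

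Promoter windows are shown for Nqo1 and Prdx1, which were lower at passage 2 and correlated over passage 1 cells, for Sod1, the other member whose window held the core, and for Gpx3, the member with the highest ratio. Each window runs from 250 bases before to 50 bases after the RefSeq gene start on GRCm38.p6 and is written in the gene's direction. The windows are chr8:107403156-107403455 on the minus strand for Nqo1, chr4:116685349-116685648 on the plus strand for Prdx1, chr16:90220512-90220811 on the plus strand for Sod1 and chr11:54902604-54902903 on the plus strand for Gpx3. Capitals mark, on either strand, the element core TGACNNNGC, the AP-1 motif TGANTCA, the GC box GGGCGG and the TATA box TATAAA.
Nqo1: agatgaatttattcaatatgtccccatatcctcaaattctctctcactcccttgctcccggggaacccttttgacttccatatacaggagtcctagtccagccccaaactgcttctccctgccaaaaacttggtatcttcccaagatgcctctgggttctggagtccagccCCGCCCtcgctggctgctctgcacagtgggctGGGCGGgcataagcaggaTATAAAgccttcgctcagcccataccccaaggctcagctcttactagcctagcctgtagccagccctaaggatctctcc
Prdx1: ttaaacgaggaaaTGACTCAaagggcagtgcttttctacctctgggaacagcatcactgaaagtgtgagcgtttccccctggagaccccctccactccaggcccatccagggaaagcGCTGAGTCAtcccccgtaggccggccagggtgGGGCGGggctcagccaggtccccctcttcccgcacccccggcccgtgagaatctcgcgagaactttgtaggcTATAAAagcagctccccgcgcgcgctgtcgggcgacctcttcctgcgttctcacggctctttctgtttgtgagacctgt
Sod1: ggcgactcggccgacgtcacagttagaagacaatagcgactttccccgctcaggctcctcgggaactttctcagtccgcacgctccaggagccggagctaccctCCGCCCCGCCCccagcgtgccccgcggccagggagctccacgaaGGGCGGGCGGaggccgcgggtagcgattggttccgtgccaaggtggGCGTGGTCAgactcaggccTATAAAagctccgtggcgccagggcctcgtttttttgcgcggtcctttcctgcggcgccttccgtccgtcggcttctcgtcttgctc
Gpx3: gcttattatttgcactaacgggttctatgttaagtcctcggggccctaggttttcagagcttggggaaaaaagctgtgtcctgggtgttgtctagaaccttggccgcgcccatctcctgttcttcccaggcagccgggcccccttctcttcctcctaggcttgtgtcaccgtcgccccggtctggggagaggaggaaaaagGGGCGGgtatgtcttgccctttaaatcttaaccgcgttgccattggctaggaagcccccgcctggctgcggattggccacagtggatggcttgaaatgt

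RefSeq windows were found for 8 of the 10 members. The element core stood in those of Prdx1 and Sod1, and in 12.4% of all 32851 windows of the same length. In Prdx1 it lay on the minus strand as GCTGAGTCA from position -133, and its last 7 bases are also an AP-1 motif, TGAGTCA from position -131. A further AP-1 motif stood at -237. In Sod1 the core lay on the minus strand as GCGTGGTCA from position -56. The core was not found in this window of Nqo1, Cat, Gpx1, Gpx3, Gpx4 or Sod2. AP-1 motifs were in 7.81%, GC boxes in 35.7% and TATA boxes in 13.6% of all windows. A match describes letters in a window, and the data hold no measurement of factor binding.

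Which animal or culture a cell came from is not in the labels, so each passage counts as 1 sample. Differences between the passages are described and not tested, and neither p-values nor standard errors are given. SDs show the spread between cells. All passage 2 libraries carry a different set prefix in their names from all passage 1 libraries, so passage and library set cannot be told apart. Passage 2 cells had 548419 to 1509589 reads in genes (median 885194) and a median of 7257 genes with a read, and passage 1 cells had 817021 to 1561129 reads (median 1227270) and a median of 8477.5 genes. Of 9 smooth muscle markers measured, 9 were higher in mean at passage 2, against 45.3% of all 8682 genes kept. Of 8 fibroblast markers measured, 5 were higher and 3 lower. At least 3 of 10 endothelial markers reached 10 normalised counts in 2 of 45 passage 2 cells and in 5 of 22 passage 1 cells, and Mki67 or Top2a, genes of dividing cells, did so in 10 of 45 and in 16 of 22. Of 10 macrophage markers, 7 were at 0 in all cells, Ptprc, Adgre1 and Tyrobp among them. Of all 39179 genes, 20000 had a read in at least 1 cell. The other macrophage markers were read in some cells, Csf1r in 17 at passage 2 and 15 at passage 1, Cd68 in 7 and 4, and Lyz2 in 2 and 3. The part of depth, endothelial markers and dividing cells in the passage differences below was not tested.

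Between the passages the members differed in both directions. In mean, the superoxide dismutases, Gpx1 and Gpx3 were higher at passage 2, Gpx4 hardly differed, and catalase, Prdx1 and above all Nqo1 were lower. For Sod2 and Gpx3 the higher mean rested on part of the passage 2 cells, as described below. Levels are normalised counts, gene counts divided by 1 size factor per cell. The log2 ratio is the difference in log2(mean + 1), passage 2 minus passage 1. It was above 0 for 7 of 10 members and below 0 for 3, against 45.3% and 54.7% of the 8682 genes. It was 1 or more for 2 members, Sod3 and Gpx3 (14.4% of all genes), and -1 or less for 3, Cat, Prdx1 and Nqo1 (19.4% of all genes). The median over the members was 0.57 and that over all genes -0.11. The ranges of passage 2 and passage 1 cells overlapped for all 10 members.

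**Figure D1:**
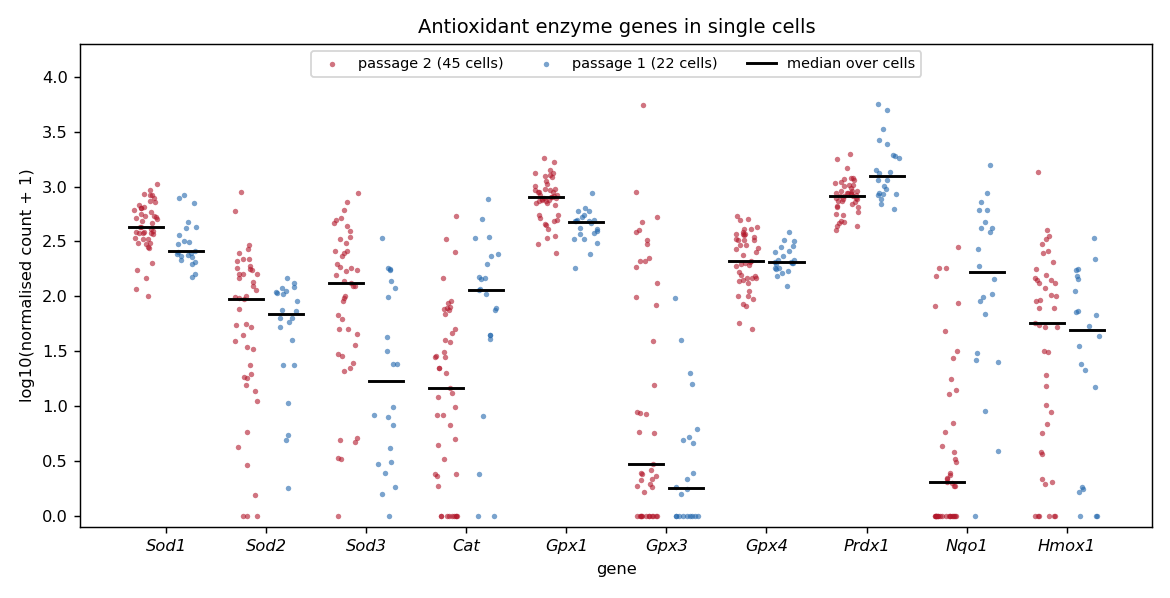
Normalised counts of the 10 genes in each cell, as log10(normalised count + 1), with passage 2 (45 cells) left of passage 1 (22 cells) and the median over cells as a black bar. Sod1, Gpx1, Gpx4 and Prdx1 form narrow bands in both passages. Gpx3, Nqo1, Cat, Hmox1 and Sod3 run down to 0 in both passages, and Sod2 does so at passage 2. The Nqo1 median is 1.04 at passage 2 and 165 at passage 1.

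Among the superoxide dismutases, Sod1 (chr16:90220754-90226329), the copper and zinc enzyme of the cytosol, was read in every cell. Its level was 485 ± 223 normalised counts at passage 2 (SD, n = 45 cells; lowest 101, median 432, highest 1049) and 344 ± 196 at passage 1 (n = 22 cells; 149, 256 and 835). The log2 ratio was 0.50, and 40 of 45 passage 2 cells lay above the passage 1 median. The passage 2 cell had more Sod1 in 71.7% of all pairs of 1 cell from each passage.

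Sod2 (chr17:13006846-13040063), the manganese enzyme of mitochondria, had 124 ± 163 normalised counts at passage 2 (0, 94.6 and 894 as lowest, median and highest) and 68.99 ± 45.4 at passage 1 (0.781, 67.6 and 145). Its log2 ratio of 0.83 came with a higher value at passage 2 in only 56.7% of cell pairs. The higher mean lay in an upper tail of passage 2 cells, 16 of which exceeded the highest passage 1 cell, and with means of log2 values the difference was 0.11. Its long 3′ isoform holds short repeats that other transcripts share, so part of its count is uncertain.

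Sod3 (chr5:52363791-52371418), the secreted dismutase that binds heparan sulphate outside the cell, had 196 ± 208 normalised counts at passage 2 (0, 132 and 881) and 62.8 ± 89.9 at passage 1 (0, 15.9 and 341). It reached 10 normalised counts in 39 of 45 passage 2 cells (86.7%, 95% interval 73.2% to 94.9% by the exact Clopper-Pearson method), against 11 of 22 at passage 1 (50%, 28.2% to 71.8%). Intervals here and below cover counting error only. The log2 ratio was 1.62, and 74.7% of cell pairs were higher at passage 2. It was 2.97 between medians and 2.40 over the 35 passage 2 and 6 passage 1 cells with both Mki67 and Top2a under 10. In the cells with endothelial markers Sod3 was 4.12 and 21.02 at passage 2 and had a median of 30.9 at passage 1. In the other cells its median was 138 at passage 2 and 8.79 at passage 1, and its mean was 204 and 61.5.

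The dismutases therefore made up different mixtures. Per kilobase of exon, the median share of Sod1 in the summed dismutase level was 70.6% at passage 2 and 81.9% at passage 1, that of Sod3 was 21.2% and 6.32%, and that of Sod2 was 4.38% and 5.51%. Sod3 was the highest dismutase per kilobase in 10 of 45 passage 2 cells and in 0 of 22 passage 1 cells. These shares and cell counts use the summed exon length of a gene, 3970 bases for Sod1. The median coding transcript has 641 bases for Sod1 and 3738 for Sod3, which would make the share of Sod1 larger in both passages. By those lengths the mean per kilobase was 757 for Sod1 and 52.4 for Sod3 at passage 2, and 536 and 16.8 at passage 1. The 10 cells with Sod3 highest and its share of 21.2% thus depend on the use of summed exon length.

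Among the enzymes that remove hydrogen peroxide, catalase (Cat, chr2:103453849-103485160), the haem enzyme of peroxisomes, was lower at passage 2. It had 49.96 ± 99.02 normalised counts at passage 2 (0, 13.6 and 539) and 168 ± 189 at passage 1 (0, 114 and 778). The log2 ratio was -1.73. Only 4 of 45 passage 2 cells lay above the passage 1 median, and 23.5% of cell pairs were higher at passage 2. Cat reached 10 normalised counts in 25 of 45 cells (55.6%, 39.997% to 70.4%) at passage 2 and in 18 of 22 cells (81.8%, 59.7% to 94.8%) at passage 1. Between medians the log2 ratio was -2.98 and between means of log2 values -2.42, where all genes together stood at -0.60 and -0.62.

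Gpx1 (chr9:108338903-108340343), the glutathione peroxidase of cytosol and mitochondria, was read in every cell and was higher at passage 2 in more cell pairs than any other member. It had 836 ± 351 normalised counts at passage 2 (249.6, 798 and 1831) and 457 ± 149 at passage 1 (180.3, 475 and 869.8). The log2 ratio was 0.87, 84.2% of cell pairs were higher at passage 2, and 18 of 45 passage 2 cells exceeded every passage 1 cell. It was the 1 member higher in at least 75% of pairs, a level reached by 2.06% of all genes. Gpx4 (chr10:80047166-80056439), which reduces lipid peroxides in membranes and protects against ferroptosis, hardly differed in mean. It had 247 ± 129 normalised counts at passage 2 (49.4, 208 and 534) and 224 ± 64.4 at passage 1 (123, 204 and 386), a log2 ratio of 0.14 with 51.8% of pairs higher. With means of log2 values its difference was -0.03. Its coefficient of variation over cells was 0.524 at passage 2 and 0.288 at passage 1. Gpx4 has 2 near-identical annotated copies that are not among the gene rows, so reads that match them may be missing from its count.

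Gpx3 (chr11:54902453-54910377), the secreted glutathione peroxidase known from plasma, was the most uneven member. It had 224 ± 834 normalised counts at passage 2 (0, 1.99 and 5558) and 8.64 ± 21.5 at passage 1 (0, 0.798 and 95.8). At passage 2 it was at least 10 in 17 of 45 cells (37.8%, 23.8% to 53.5%), and 14 cells exceeded the highest passage 1 cell, whereas at passage 1 it was at least 10 in 4 of 22 cells (18.2%, 5.19% to 40.3%). The log2 ratio of 4.55 ranked 20 from the top of 8682 genes. Passage 2 cell 15 alone held 55.1% of the passage 2 sum with 11553 reads. That cell had the most reads of any passage 2 cell, 1509589, but 4754 genes with a read, and it also held the highest Sod2 value. Without it the ratio was 3.43, and without passage 1 cell 1 it was 5.36. Between medians, both near the value of 1 read, it was 0.73. Gpx3 was at 0 in both passage 2 cells with endothelial markers and at most 4.27 in the 5 at passage 1.

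Prdx1 (chr4:116685544-116700822), a peroxiredoxin that reduces peroxide with electrons from thioredoxin, was lower at passage 2 but abundant in every cell. It had 866 ± 325 normalised counts at passage 2 (404, 820.5 and 2002) and 1758 ± 1357 at passage 1 (631, 1242 and 5684). The log2 ratio was -1.02, and 22.6% of cell pairs were higher at passage 2. A tail of 5 passage 1 cells exceeded every passage 2 cell, and 42 of 45 passage 2 cells lay below the passage 1 median. Prdx1 has 2 processed pseudogenes in the table, with 886 reads against its own 97321. In the cells with Mki67 and Top2a under 10 the ratio was -0.73. In cells with endothelial markers the median was 676 at passage 2 and 865 at passage 1, and in the other cells it was 820.5 and 1426.

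Of the inducible enzymes, Nqo1 (chr8:107388225-107403206), the quinone reductase often used as a reporter of Nrf2 activity, differed most. It had 25.4 ± 60.1 normalised counts at passage 2 (0, 1.04 and 284) and 325 ± 383 at passage 1 (0, 165 and 1573). The log2 ratio of -3.63 ranked 109 from the bottom of 8682 genes, and 11.4% of cell pairs were higher at passage 2. With Cat and Prdx1 it made 3 members higher at passage 2 in at most 25% of pairs, against 5.98% of all genes. Its share of all reads at passage 2 was 0.0813 times that at passage 1 (exact binomial 95% interval 0.0767 to 0.0862, from 1301 and 10214 reads).

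Nqo1 reached 10 normalised counts in 12 of 45 cells (26.7%, 14.6% to 41.9%) at passage 2 and in 19 of 22 cells (86.4%, 65.1% to 97.1%) at passage 1. A read was present in 57.8% of passage 2 cells and 95.5% of passage 1 cells, and after thinning each cell to 500000 reads in 48.9% and 95.5%. Among 23 lymphocyte, erythroid and striated muscle markers, the highest share of cells with a read was 33.3% at passage 2 and 31.8% at passage 1, and the highest share at 10 was 8.89% and 9.09%. Median reads per cell were 885194 and 1227270. The log2 ratio of Nqo1 was -6.35 between medians and -2.71 in cells with Mki67 and Top2a under 10. In those 35 and 6 cells its mean was 22.2 at passage 2 and 151 at passage 1.

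Hmox1 (chr8:75093621-75100589), which breaks haem down to biliverdin, carbon monoxide and iron, did not move with Nqo1. It had 122 ± 218 normalised counts at passage 2 (0, 56.5 and 1368) and 77.9 ± 89.4 at passage 1 (0, 47.9 and 338). The log2 ratio was 0.64, but 54.1% of cell pairs were higher at passage 2. It was at least 10 in 30 of 45 cells (66.7%, 51.05% to 79.999%) at passage 2 and in 16 of 22 cells (72.7%, 49.8% to 89.3%) at passage 1. The difference in means rested on few cells, since 3 passage 2 cells exceeded every passage 1 cell and without passage 2 cell 18 the ratio was 0.27. Without the 25% of cells with the fewest genes in each passage it was 0.07.

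**Figure D2:**
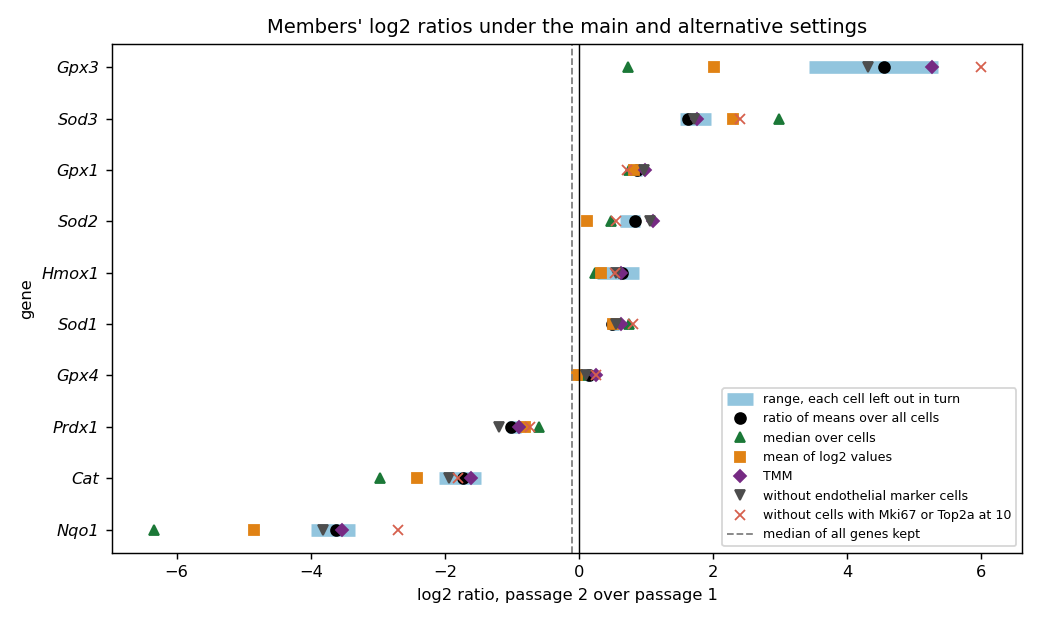
Log2 ratios of the 10 genes, passage 2 over passage 1, with black points for the ratio of means over all cells, bars for the range when each cell was left out in turn, other marks for alternative settings and a dashed line for the median of all genes kept (-0.11). Nqo1, Cat and Prdx1 lie below 0 and Sod3, Gpx1, Sod1, Sod2, Hmox1 and Gpx3 above 0 at every mark, Gpx3 between 0.73 and 5.99, while Gpx4 lies close to 0.

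Added up per kilobase of exon, the members gave nearly the same total in both passages. The sum was 1424 ± 579 normalised counts per kilobase at passage 2 (median 1296) and 1458 ± 652 at passage 1 (median 1303). Its composition differed. By mean level per kilobase the order at passage 2 was Gpx1 (580.5 ± 243), Prdx1 (284 ± 107), Gpx4 (143 ± 74.99), Gpx3 (124 ± 460.2), Sod1 (122 ± 56.3), Hmox1 (69.8 ± 124), Sod3 (52.4 ± 55.5), Cat (19.1 ± 37.9), Nqo1 (16.3 ± 38.7) and Sod2 (12.3 ± 16.3). Gpx1 and Prdx1, and Prdx1 and Gpx4, differed by more than the larger of their SDs over cells, and all later neighbours in this order by less.

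At passage 1 the order per kilobase was Prdx1 (578 ± 446), Gpx1 (317 ± 103), Nqo1 (209 ± 247), Gpx4 (129.7 ± 37.3), Sod1 (86.6 ± 49.4), Cat (64.5 ± 72.2), Hmox1 (44.5 ± 51.05), Sod3 (16.8 ± 24.0), Sod2 (6.89 ± 4.54) and Gpx3 (4.77 ± 11.8). Here every pair of neighbours differed by less than the larger of their SDs. By exon length Nqo1 thus had rank 9 at passage 2 and rank 3 at passage 1. Gpx1 was the highest member in 39 of 45 passage 2 cells and in 9 of 22 passage 1 cells, and Prdx1 in 5 and in 13. These orders depend on the length used. With the median length of coding transcripts in place of exon length, a choice made after seeing the data, Nqo1 had rank 10 at passage 2 and rank 5 at passage 1. Sod1 then had rank 3 in both passages, and at passage 2 the mean of Prdx1 (1309.5) stood above that of Gpx1 (1062.8). With this length Prdx1 was the highest in 25 of 45 passage 2 cells and in 21 of 22 passage 1 cells, and Gpx1 in 14 and in 0. The summed level was then 3872 ± 1397 at passage 2 and 4417 ± 2308 at passage 1, with medians of 3572 and 3596.

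Over the cells of one passage, the members were mostly weakly correlated with each other. Spearman correlations of the 45 pairs of members ran from -0.29 to 0.35 at passage 2 (median -0.04) and from -0.66 to 0.75 at passage 1 (median 0.01). Over the 35 passage 2 cells with Mki67 and Top2a under 10 they ran from -0.39 to 0.70. They are descriptions, since the cells of a passage share a library set and count as 1 sample, and ranges widen with fewer cells. At passage 1, Prdx1 and Nqo1 went together over the 22 cells, with a correlation of 0.75, against 0.12 over the 45 passage 2 cells. The passage 1 value was 0.75 after thinning, 0.70 without the cells with endothelial markers, 0.85 without the cells with the fewest genes, and 0.71 without passage 1 cell 21, which held the highest value of both genes. Passage 1 cells 3, 8, 10 and 21 were among the highest 5 for both.

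**Figure D3:**
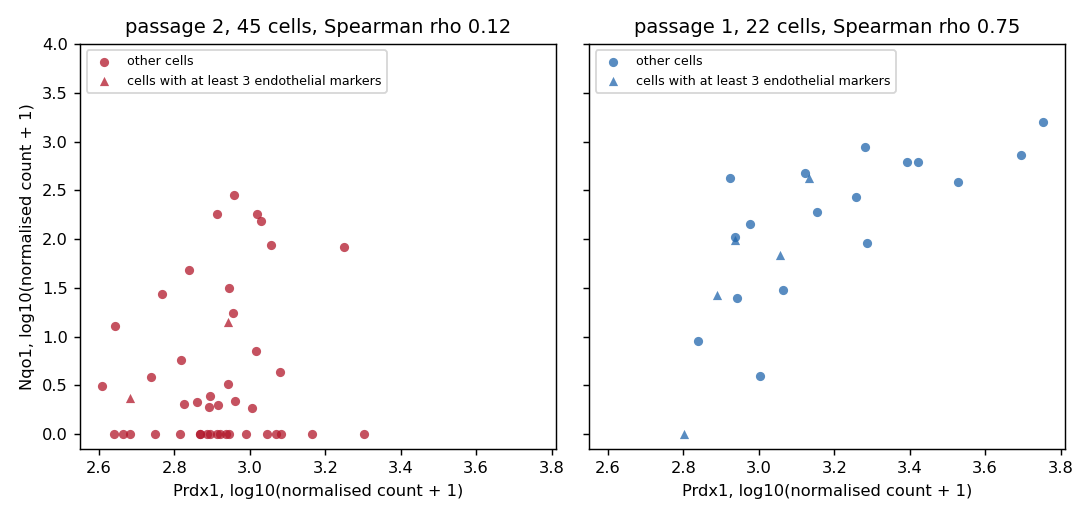
Prdx1 (x axis) and Nqo1 (y axis) in each cell, both as log10(normalised count + 1), at passage 2 on the left and passage 1 on the right, with triangles for cells that had at least 3 endothelial markers at 10. Passage 1 cells run along a rising band with a Spearman correlation of 0.75, while passage 2 cells show 0.12 and many lie at 0 for Nqo1.

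The ferritin subunits, which store iron and are known Nrf2 targets, followed the same passage 1 cells. The correlation of Prdx1 with Fth1 was 0.10 at passage 2 and 0.81 at passage 1, and with Ftl1 it was 0.38 and 0.77. For Nqo1 it was -0.006 and 0.66 with Fth1, and 0.18 and 0.62 with Ftl1. Other Nrf2 target genes varied at passage 1. Their correlations ran from -0.13 (Txnrd1) to 0.50 (Pgd) with Prdx1, and from -0.23 (Slc7a11) to 0.52 (Esd) with Nqo1. Hmox1, also a haem and iron gene, had a correlation with Prdx1 of 0.35 at passage 2, the highest of any pair over all 45 cells, and of 0.47 at passage 1. Over the 35 passage 2 cells with Mki67 and Top2a under 10 it was 0.70, and over the 6 such passage 1 cells 0.26. Gpx1 ran against Prdx1 at passage 1, with -0.66 over 22 cells and -0.06 at passage 2. In the 6 passage 1 cells with Mki67 and Top2a under 10 it was -0.14, too few to rank. Gpx1 and Gpx3 had a correlation of 0.13 at passage 2 and of -0.54 at passage 1, which was -0.13 in those 6 cells.

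**Figure D4:**
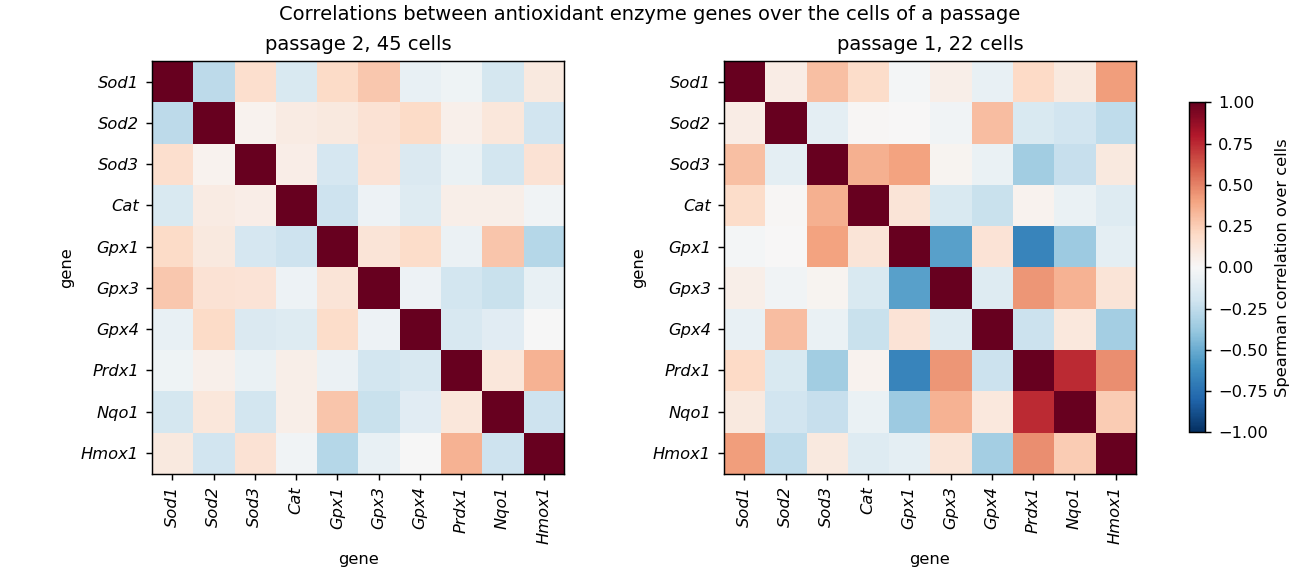
Spearman correlations between the 10 genes over cells, passage 2 (45 cells) on the left and passage 1 (22 cells) on the right, with red for positive and blue for negative values. Most squares are pale; the darkest off the diagonal are at passage 1, Prdx1 with Nqo1 (0.75), Prdx1 with Gpx1 (-0.66) and Gpx1 with Gpx3 (-0.54).

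Genes were ranked by how like a member their pattern over cells was. The measure was the mean of the Spearman correlations within passage 2 (45 cells) and within passage 1 (22 cells), over 5687 genes. Each gene named is thus among the highest of 5687 values, and no link was tested. The median over these genes ran from -0.04 for Sod1 to 0.05 for Cat. Except for Ftl1 with Sod1, the first gene had its higher correlation at passage 1, as Nmt2 with Sod2 (0.20 at passage 2 and 0.66 at passage 1). For Sod1 the first was Ftl1 (0.46), for Sod2 Nmt2 (0.43), for Sod3 Tnfrsf11b (0.60), a secreted decoy receptor, and for Cat Ik (0.51). For Gpx1 it was Tax1bp1 (0.43), for Gpx3 Tusc3 (0.50) and for Gpx4 Cox7a2l (0.56), a mitochondrial protein. For Nqo1 it was Tcp1 (0.50), a chaperonin subunit, and for Hmox1 Nr4a1 (0.49), an immediate early gene, followed by Stat3 (0.48). Prdx1 was most like Gm7204 (0.66), its own processed pseudogene with 97.5% identity and 830 reads, which may hold reads of Prdx1, and then like Ftl1 (0.57) and Fth1 (0.46).

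The related pathways gave a mixed picture, with genes higher and lower at passage 2 in each list. These counts are descriptions beside the 45.3% of all genes that were higher and the 54.7% that were lower. Of 17 further Nrf2 target genes measured, 6 were higher and 11 lower, a share of lower genes near that of all genes, with a median log2 ratio of -0.75. The lowest was Srxn1, the sulfiredoxin that repairs overoxidised peroxiredoxins, at 8.44 ± 26.1 normalised counts at passage 2 and 51.2 ± 87.1 at passage 1 (log2 ratio -2.47). The highest was Gsr, glutathione reductase, at 38.5 ± 45.6 and 28.6 ± 44.6 (0.41), and the most abundant was Fth1 at 1854 ± 987 and 2461 ± 1696 (-0.41). The list's median was 0.22 in the cells with Mki67 and Top2a under 10, 35 at passage 2 and 6 at passage 1. Of 11 haem and iron genes 2 were higher and 9 lower, with a median of -0.80, and the lowest was Aco1, an iron-sensing protein (-2.12, and -1.40 without passage 1 cell 21). Of 8 Nrf2 regulators and partners 6 were higher and 2 lower, with a median of 0.29, which was -0.07 with means of log2 values. Nfe2l2, which encodes Nrf2 and is given here after its values were seen, was one of the lower genes, at 147 ± 137 at passage 2 and 233 ± 138 at passage 1 (-0.66, with 32.8% of pairs higher). Keap1 was at 3.33 ± 9.12 at passage 2 and 17.3 ± 29.8 at passage 1 (-2.08), with medians of 0 and 3.24. The small Maf gene Mafk was at 52.2 ± 90.4 and 6.28 ± 14.4 (2.87, and 3.54 without passage 1 cell 20), with medians of 11.2 and 0.771.

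The list of thioredoxin and peroxiredoxin genes, only part of which supplies electrons to Prdx1, had 4 of 13 genes higher and 9 lower, with a median of -0.32. Prdx6, the most abundant, had 186 ± 210 normalised counts at passage 2 and 396 ± 340 at passage 1 (-1.09). Txnip, the thioredoxin inhibitor, had 108 ± 258 at passage 2 and 8.30 ± 24.9 at passage 1 (3.54, between 3.01 and 4.68 with 1 cell left out, the highest value without passage 1 cell 14). Of 16 glutathione genes 7 were higher and 9 lower, with a median of -0.11, the same as that of all genes. Gstm2, a glutathione transferase, had the highest ratio at 356 ± 252 and 178 ± 83.4 (0.99). Gsta4, the transferase for lipid aldehydes, had the lowest at 5.44 ± 30.2 and 72.3 ± 138 (-3.51, and -5.22 without passage 2 cell 37), with medians of 0 and 1.82. The most abundant was Gpx8, an endoplasmic reticulum peroxidase, at 343 ± 207 and 342 ± 193 (0.003).

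Genes for copper and metal handling, which load Sod1 and Sod3 or bind metals, had 3 of 7 higher and 4 lower, with a median of -0.33. Both metallothioneins named were lower at passage 2. Mt1 had 94.1 ± 111 normalised counts at passage 2 and 261 ± 161 at passage 1 (-1.46, with 15.9% of pairs higher), and Mt2 had 3.92 ± 10.1 and 29.3 ± 26.6 (-2.62, with 11.6% of pairs higher). Atp7a, the copper pump that supplies secreted enzymes, had 19.3 ± 37.2 at passage 2 and 5.88 ± 12.5 at passage 1 (1.56), with medians of 0 in both passages. Gpx1, Gpx3 and Gpx4 depend on selenoprotein synthesis. The list named for it also counts other selenoproteins, such as Selenop and Selenok, and 5 of its 10 genes were higher and 5 lower, with a median of 0.05. The synthesis genes measured were Sepsecs, Eefsec (1.58), Secisbp2 (-0.16) and Pstk, all with medians under 10 in both passages. Selenop had 572 ± 716 at passage 2 and 483 ± 399 at passage 1 (0.24). Sepsecs had the highest ratio (2.36, and 1.76 without passage 2 cell 6) and Pstk the lowest (-0.55), both with medians under 10.

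Of 8 peroxisome genes, which build the compartment of catalase, 3 were higher and 5 lower, with a median of -0.30. Pex19, the most abundant and the lowest in ratio, had 70.2 ± 109 normalised counts at passage 2 and 117 ± 120 at passage 1 (-0.73). Pex14 had the highest ratio (1.51), but its medians were 0 at passage 2 and 0.781 at passage 1, with 45.7% of pairs higher at passage 2. Of 12 sources of superoxide only 4 passed the filter, 2 of them higher and 2 lower, with a median of -0.30. Nox4, the NADPH oxidase of smooth muscle, had 106 ± 150 at passage 2 and 38.5 ± 68.8 at passage 1 (1.43). Its partner Cyba had 104 ± 81.0 and 78.8 ± 51.2 (0.40). Xdh, xanthine dehydrogenase, had 7.56 ± 29.6 and 36.7 ± 84.5 (-2.14, between -3.10 without passage 2 cell 42 and -1.33 without passage 1 cell 15). The Xdh medians were 0 at passage 2 and 5.05 at passage 1.

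**Figure D5:**
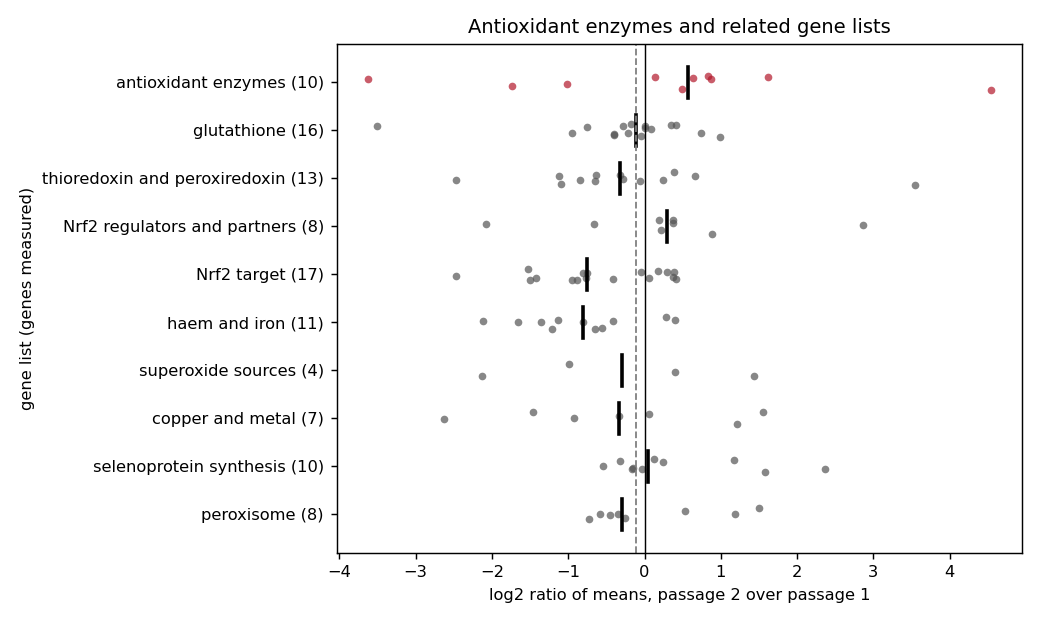
Log2 ratio of means, passage 2 over passage 1, for each measured gene of the antioxidant enzymes (red) and of 9 related lists (grey), with the median of a list as a black bar and that of all genes kept as a dashed line (-0.11). Haem and iron genes have a median of -0.80 and Nrf2 targets of -0.75, and the antioxidant enzymes spread from -3.63 to 4.55.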

How the data were processed

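The deposited signal values are gene counts after division by a size factor, 1 per cell, made by the authors with DESeq. BWA, SAMtools, HTSeq and DESeq with GRCm38 were used, per the submitters' processing notes. Versions, strand and the handling of multi-mapping reads were not given in the sources used here. Reads were recovered from the smallest step in each column (100% of values above 0 within 0.001 of a whole number). No count test was run, because each passage counts as 1 sample.

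Symbols, exon lengths and coordinates came from GENCODE M21, and copies were sought with BLAST 2.17.0. Named genes are the 10 members, the most abundant, highest and lowest gene of each related list, the genes most like each member (first ones printed), and cells that move a ratio by over 1.5 times when left out. Fth1 and Ftl1 were set beside Nqo1 after their values were seen. Members and lists were chosen with earlier results of these data known. Alternatives were pseudocounts of 0.1 and 10, filters, scaling by total counts or TMM, medians, means of log2 values, thinning, and leaving out cells. No doublet caller was run on 67 cells. The summary was tested on simulated data. Software was pandas 2.3.3, numpy 2.4.6, scipy 1.17.1, matplotlib 3.10.9 and Python 3.11.15.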

Additional observations from a re-analysis of the deposited data

How the results depend on the processing

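Of the values that answer a comparison, log2 ratios and their medians counted as moved when they shifted by more than 1.5 times, and counts likewise. By that measure 25 values moved under the alternatives run and 244 did not. Of the members' ratios, that of Gpx4 changed sign, to -0.03 with means of log2 values, and the median of the Nrf2 regulators was then -0.07. With medians over cells the log2 ratio was 2.97 for Sod3, -2.98 for Cat, 0.73 for Gpx3 and -6.35 for Nqo1, and the list medians were -0.72 for glutathione, -1.63 for Nrf2 targets and -2.05 for haem and iron genes, while all genes stood at -0.60. With means of log2 values the list medians were -0.91 for glutathione and -0.96 for thioredoxin and peroxiredoxin genes, with all genes at -0.62. The log2 ratio was then 0.11 for Sod2, 2.30 for Sod3, -2.42 for Cat, 2.01 for Gpx3 and -4.86 for Nqo1. In the cells with Mki67 and Top2a under 10 it was 2.40 for Sod3, 5.99 for Gpx3 and -2.71 for Nqo1, and the medians were 0.22 for Nrf2 targets, 0.64 for superoxide sources and 0.34 for peroxisome genes, each above 0 there and below 0 over all cells, with all genes at 0.02. Gpx3 was 3.65 with a pseudocount of 10, 5.26 with TMM, 3.24 without the cells with the fewest genes, and 3.43 to 5.36 with 1 cell left out. TMM shifted the median of all genes to -0.002, against -0.11. The number of genes at 1 or more, 1251, was 743 with a pseudocount of 10, 2527 without a filter, 642 with medians, 578 with means of log2 values and 2146 in the cells with Mki67 and Top2a under 10. That at -1 or less, 1688, was 1058, 2800, 3452 and 3046 in the first 4 of these. The causes were not tested.

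No paired analysis was possible because the results come from no test and the cell numbers are only names. With 1 sample per passage, replicate cultures would be needed to tell passage from library set or culture. A value of 1 to 3 reads cannot be told from background in a cell.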
